A study of Mus musculus with 6 samples.

Results

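Basement membrane and matrix genes are described here in hair follicle stem cells of mouse skin: 37 genes for laminin chains, collagens, hemidesmosome plakins, nephronectin-type proteins, proteoglycans and other matrix proteins, with integrins left out. The genes were taken from a list of names that was chosen with earlier results of these data known. All 37 were found among the 36528 genes listed in the count files. Poly(A) RNA was sequenced from skin cells sorted as carrying CD49f (integrin alpha 6) and CD34 on their surface and lacking GFP. The DT group comprised 3 libraries from Lgr5-DTReGFP mice given diphtheria toxin (DT), and the saline group 3 libraries from Lgr5-DTReGFP mice given saline (NaCl). All mice of both groups thus carried the toxin receptor and eGFP at Lgr5, so DT kills cells that express Lgr5, and the cells studied are those outside the GFP-positive population. No DT-treated mice without the receptor were part of the comparison. Age, dose, the time from DT to collection and whether each library came from a separate animal are not given in the labels, and the spread behind the p-values may therefore be partly or wholly technical.

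Epithelial stem cells of the hair follicle bulge sit on a basement membrane, a sheet built of laminin and type IV collagen networks that nidogens and heparan sulfate proteoglycans such as perlecan and agrin tie together. Hemidesmosomes anchor the cells to it through type XVII collagen, plectin and dystonin, and anchoring fibrils of type VII collagen fix the sheet to the dermis. Bulge cells also deposit a specialised matrix: nephronectin, for example, serves as the attachment ground of the arrector pili muscle. A provisional matrix rich in fibronectin and tenascin C forms in wounded skin.

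Reads in genes came to 15300755 to 25558859 per library, and DT library 2 had the fewest. A gene was tested when it passed a filter on low counts, which left 15132 genes, and levels are given as CPM, the count scaled to a common library size, after TMM scaling of library size. Of the tested genes 29.0% passed edgeR's quasi-likelihood test at a Benjamini-Hochberg adjusted p under 0.05, 17.2% higher and 11.9% lower in DT. The share of calls that were higher was 59.2%, and 47.5% when scaled by library size only, where the median over all genes moved to -0.11 on the log2 scale. Cd34 was at 2347.5 ± 402.8 CPM in DT and 2804 ± 354.5 CPM in saline, and Itga6, which encodes CD49f, at 98.8 ± 10.5 CPM in DT and 122 ± 20.5 CPM in saline (SD, n = 3 each). Lgr5 was at 7.11 ± 0.143 CPM in DT and 24.0 ± 7.20 CPM in saline (log2 fold change -1.76, adjusted p = 0.000864). Of the 9 listed markers of the sorted stem cells, all tested, 1 rose and 3 fell, Lgr5 among them. The others that changed, named after their values were seen, were Krt14 (log2 fold change 1.78, adjusted p = 5.155e-05), Lhx2 (-1.09, adjusted p = 0.007) and Sox9 (-0.71, adjusted p = 0.034). Summed levels of marker lists for other cells did not overlap between groups for immune cells (106 to 127 CPM in DT, 160 to 230.0 CPM in saline), Schwann cells and melanocytes (3.36 to 5.39 CPM in DT, 8.12 to 22.0 CPM in saline) and suprabasal epidermis (567 to 794 CPM in DT, 876 to 1160 CPM in saline). Of 8, 4 and 6 tested genes of these lists, 4, 2 and 3 fell, against 11.9% of all genes tested. The part of such cells in the matrix results was not tested. The lists for endothelial cells (10.2 to 15.1 CPM in DT, 5.27 to 39.2 CPM in saline) and for smooth muscle and pericytes (271 to 344 CPM in DT, 231 to 334 CPM in saline) overlapped in their sums. Of 5 tested endothelial genes 1 fell, and of 3 tested smooth muscle and pericyte genes 2 rose, where 11.9% of all genes fell and 17.2% rose. The immune sum was mostly Cd74, at 98.0 ± 9.47 CPM in DT and 152 ± 20.6 CPM in saline. The suprabasal sum was mostly Sbsn, at 629 ± 116 CPM in DT and 903 ± 139 CPM in saline. The sum for smooth muscle and pericytes was mostly Cspg4, at 238 ± 64.5 CPM in DT and 281 ± 52.3 CPM in saline (SD, n = 3 each). The genes of that list that rose, named after their values were seen, were Acta2, the smooth muscle actin gene, at 23.1, 88.2 and 101.9 CPM in DT, against 0.870, 0.601 and 1.13 CPM in saline (log2 fold change 6.34, adjusted p = 8.94e-05), and Tagln (log2 fold change 1.24, adjusted p = 0.0369). Myh11 had 3, 7 and 4 reads in DT libraries, against 23, 0 and 0 reads in saline libraries, and was not tested. Rgs5 had 0 reads in all 6 libraries, and Pdgfrb and Des had 0 to 1 and 0 to 3 reads per library. In bulk RNA fewer cells of a type cannot be told apart from less RNA per cell.

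Most matrix genes that changed fell in DT, while fibronectin and tenascin C rose. Of the 37 genes, 32 passed the filter. Of these 32, 15 fell and 2 rose, that is 46.9% lower and 6.25% higher, against 11.9% and 17.2% of all genes tested. Since the list was chosen with earlier results of these data known, its shares are not independent of those results. Their median log2 fold change, DT minus saline, was -0.59, where that of all genes tested was -0.01. All 3 DT libraries lay below all 3 saline libraries for 16 of the 32 genes, as they did for 20.5% of all genes tested, and above them for 2, as they did for 25.4% of all genes. DT library 2 had the lowest level of its group for 28 of the 32 genes, and DT library 1 the highest for 21. Relative to the saline mean, the median over the 32 genes was -0.28, -0.89 and -0.55 on the log2 scale in DT libraries 1, 2 and 3, against 0.14, 0.09 and -0.22 in saline libraries 1, 2 and 3.

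**Figure D1:**
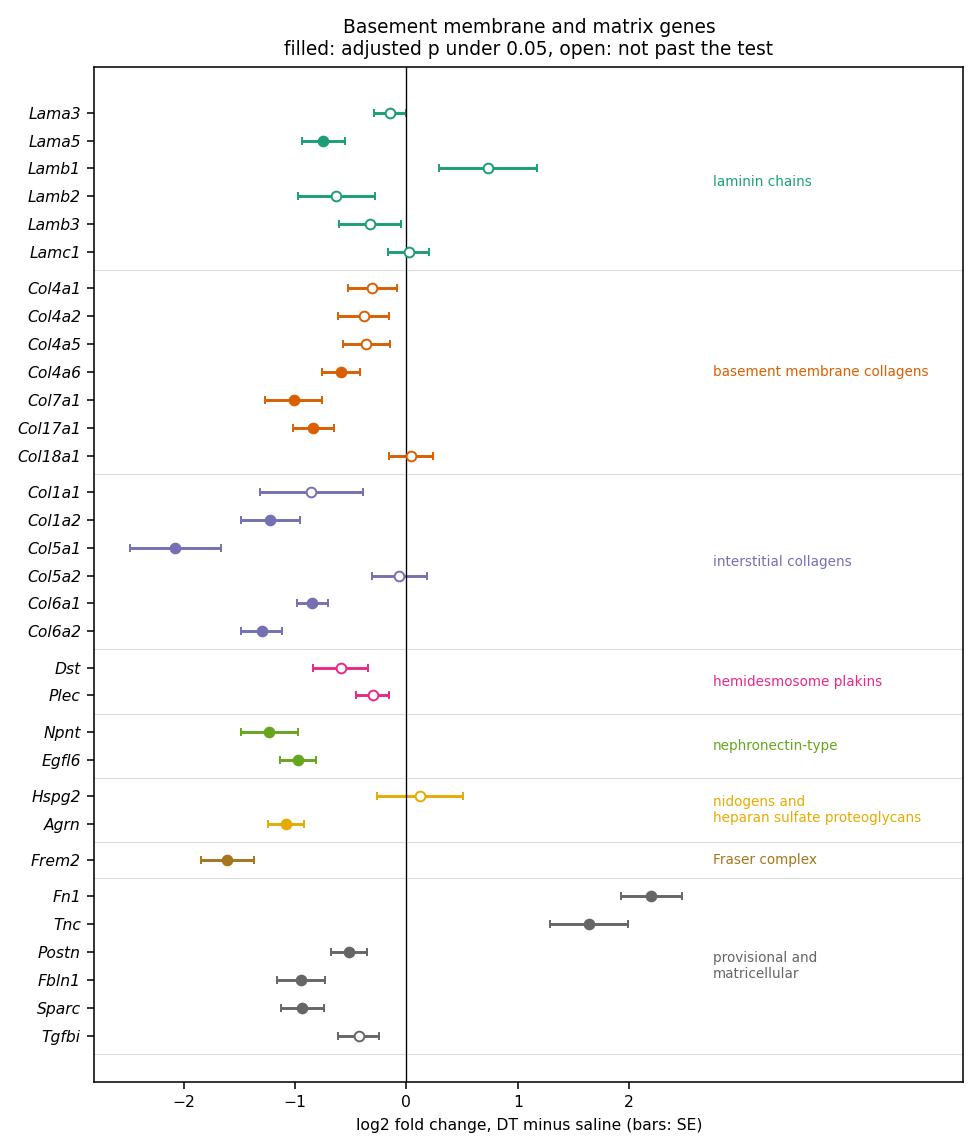
Log2 fold change, DT minus saline, of the 32 tested genes on the horizontal axis, ordered by role down the page, with SE bars. Filled points passed the test: 15 lie left of 0 and 2, Fn1 and Tnc, lie right of it.

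The 17 calls are given by role, in groups of 1 to 7 tested genes. Over all genes tested, 11.9% fell and 17.2% rose. Both nephronectin-type genes fell, as did 4 of 6 tested interstitial collagen genes and 3 of 7 basement membrane collagen genes. Among the 6 laminin chains 1 fell (16.7%), near the share of all genes, and 3 fell without DT library 1. Among the 2 plakins 0 changed, though Dst passed without DT library 1. The 6 provisional and matricellular genes held both genes that rose and 3 that fell. The submitters' sample identifiers form 2 number series, of which the larger holds 2 libraries per group and the smaller 1 per group. Of the 32 tested genes, 29 (90.6%) had the same direction in both series, as did 81.2% of all genes tested. In the larger series alone, 1 of the members rose and 11 fell, where of all 15191 genes tested 1097 rose and 473 fell.

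The DNA just upstream of the start site is shown for 5 members that changed, so that those that fell can be set beside Tnc, which rose. The sequences come from RefSeq on GRCm38.p6, which had an entry for 29 of the 37 genes but none for Fn1, and each gives the 200 bases before the start, 5′ to 3′ on the strand of the gene, here the minus strand in every case. They lie at chr4:64047016-64047215 for Tnc, chr3:132950292-132950491 for Npnt, chrX:166585717-166585916 for Egfl6, chr19:47692043-47692242 for Col17a1 and chr3:53657356-53657555 for Frem2. Capitals mark matches, on either strand, to 4 motifs, whose matches may share end bases: the AP-1 site TGANTCA, the site of TEAD factors written GGAATG, the GC box given by GGGCGG, and the TATA box, searched as TATAAA. The Frem2 window ends at a start site inside the annotated span of the gene.
Tnc: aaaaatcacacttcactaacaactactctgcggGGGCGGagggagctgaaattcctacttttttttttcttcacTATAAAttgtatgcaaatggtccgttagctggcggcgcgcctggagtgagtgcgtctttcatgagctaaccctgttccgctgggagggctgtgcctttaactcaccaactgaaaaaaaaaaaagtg
Npnt: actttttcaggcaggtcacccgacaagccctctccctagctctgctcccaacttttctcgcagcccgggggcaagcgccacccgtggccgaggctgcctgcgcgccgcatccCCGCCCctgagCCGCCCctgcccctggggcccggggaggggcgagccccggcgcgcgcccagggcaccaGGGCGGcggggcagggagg
Egfl6: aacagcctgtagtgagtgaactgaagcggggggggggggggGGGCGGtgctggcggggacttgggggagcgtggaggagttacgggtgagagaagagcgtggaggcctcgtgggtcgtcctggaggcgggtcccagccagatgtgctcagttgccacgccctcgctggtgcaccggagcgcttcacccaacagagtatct
Col17a1: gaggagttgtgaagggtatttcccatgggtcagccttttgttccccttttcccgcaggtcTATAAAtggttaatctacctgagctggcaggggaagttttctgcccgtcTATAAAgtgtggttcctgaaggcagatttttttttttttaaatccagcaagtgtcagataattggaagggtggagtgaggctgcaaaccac
Frem2: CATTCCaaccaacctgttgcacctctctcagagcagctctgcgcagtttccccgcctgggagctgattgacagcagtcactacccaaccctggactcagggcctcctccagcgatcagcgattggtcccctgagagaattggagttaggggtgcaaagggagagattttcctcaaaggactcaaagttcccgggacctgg
Windows of Tnc, Npnt and Egfl6 hold a GC box, as do 62.1% of the 29 member windows and 55.1% of the windows of tested genes. TATAAA occurs in Tnc, in Col17a1 and in 10.3% of member windows, against 4.93% of the windows of tested genes. GGAATG occurs in the Frem2 window, in 10.3% of member windows and in 8.65% of the windows of tested genes. TGANTCA is in none of the 5 windows shown, in 1 member window, that of Col6a1, and in 3.79% of the windows of tested genes. Member windows include those of members too low to test, unlike the windows of tested genes. Among the untested members, Col3a1 holds TATAAA and GGAATG, and Nid1 holds GGAATG and a GC box. These matches describe letters and show no binding.

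Both genes of the nephronectin type fell in DT. Npnt (Entrez 114249, chromosome 3 from 132881745 to 132950291 in GRCm38), the nephronectin gene, was at 54.5, 34.4 and 57.9 CPM in DT libraries 1 to 3, against 156, 109 and 80.6 CPM in saline libraries 1 to 3. Every DT library lay below every saline library, with saline library 3 the nearest to DT. Its log2 fold change was -1.23 (SE 0.26, adjusted p = 0.00667), or -1.59 within the larger identifier series and -0.48 within the smaller. Egfl6 (Entrez 54156, chromosome X from 166523007 to 166585716), whose product shares the EGF-like and MAM domain make-up of nephronectin, was at 436, 284 and 379 CPM in DT, against 684, 711 and 761 CPM in saline. The groups were well apart and the saline libraries close together, and the difference was -0.97 on the log2 scale (SE 0.16, adjusted p = 0.00221). Per length of transcript Egfl6 was the more abundant of the pair in every library: the ratio of its RPKM to that of Npnt was 13.5 ± 1.65 in DT and 12.1 ± 4.51 in saline (SD, n = 3 each), and the groups overlapped.

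Of the 7 basement membrane collagen genes, Col17a1, Col7a1 and Col4a6 fell and 0 rose, with a median log2 fold change of -0.38. Col17a1 (Entrez 12821, chromosome 19 from 47646341 to 47692042), which encodes the transmembrane collagen of hemidesmosomes that bulge stem cells need for their maintenance, was at 813, 642 and 685 CPM in DT, against 1651, 1150 and 1014 CPM in saline. Saline library 1 stood highest and the groups did not overlap (log2 fold change -0.83, SE 0.19, adjusted p = 0.00937). Col7a1 (chromosome 9 from 108953586 to 108984875), the anchoring fibril collagen, was at 33.2, 16.5 and 17.2 CPM in DT, against 44.0, 46.3 and 44.5 CPM in saline. DT library 1 lay between the other DT libraries and saline, and the log2 fold change was -1.01 (SE 0.26, adjusted p = 0.0154, or 0.0526 without DT library 3). Col18a1, the gene of a heparan sulfate proteoglycan that is cleaved to endostatin, was at 76.9 ± 1.58 CPM in DT and 74.8 ± 23.8 CPM in saline (log2 fold change 0.04, SE 0.20, adjusted p = 0.894, and -0.06 when scaled by library size only).

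The type IV collagen genes stand in head-to-head pairs that start close to each other. Col4a1 and Col4a2, the chains found in most basement membranes, overlap by their first exons, on chromosome 8 near 11312805, and 22 exon bases are annotated for both. Col4a1 was at 21.1, 15.8 and 15.8 CPM in DT, against 25.7, 23.1 and 16.5 CPM in saline, and Col4a2 at 21.6, 13.2 and 16.7 CPM in DT, against 25.9, 23.6 and 17.7 CPM in saline. Both overlapped between groups, and neither passed the test (log2 fold changes -0.31, SE 0.22, and -0.38, SE 0.23). The ratio of Col4a2 to Col4a1 RPKM was 1.13 ± 0.143 in DT and 1.20 ± 0.0435 in saline (SD, n = 3 each). On chromosome X, 1274 bases separate the ends of Col4a6 and Col4a5 in RefSeq. Col4a6 (chromosome X from 141165403 to 141474095) was at 23.0, 20.5 and 24.6 CPM in DT, against 35.9, 37.8 and 28.7 CPM in saline (log2 fold change -0.59, SE 0.17, adjusted p = 0.0287). This call was lost, at adjusted p up to 0.118, without DT library 2 or 3 or saline library 1 or 2. Col4a5 was at 20.5, 13.2 and 21.1 CPM in DT, against 21.2, 24.9 and 24.3 CPM in saline, and did not pass (log2 fold change -0.36, SE 0.21, adjusted p = 0.228), although the groups only just failed to overlap. The further pair, Col4a3 and Col4a4 on chromosome 1, belonged to the wider list of basement membrane genes and fell as a pair: Col4a3 was at 192 ± 41.4 CPM in DT and 357 ± 74.4 CPM in saline (log2 fold change -0.90, adjusted p = 0.00782), and Col4a4 at 27.7 ± 10.2 CPM in DT and 55.4 ± 5.22 CPM in saline (log2 fold change -0.995, adjusted p = 0.0131; SD, n = 3 each).

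Laminins are trimers of an alpha, a beta and a gamma chain, and of the 6 chains listed Lama5 alone passed the test. Lama5 (chromosome 2 from 180176373 to 180225904), the alpha chain of the laminins found in most epithelial basement membranes, was at 63.9, 38.9 and 46.1 CPM in DT, against 91.5, 88.1 and 70.5 CPM in saline (log2 fold change -0.75, SE 0.19, adjusted p = 0.0175). Its groups did not overlap, and the call was lost without DT library 3 or saline library 2 (adjusted p up to 0.0624). Lamc1, the gamma chain of the same laminins, was at 28.6 ± 2.97 CPM in DT and 28.2 ± 5.26 CPM in saline (SD, n = 3 each; log2 fold change 0.02, SE 0.19, and -0.08 when scaled by library size only). Lamb1, one of their beta chains, was at 20.4, 10.7 and 16.2 CPM in DT, against 3.90, 16.3 and 8.33 CPM in saline, with wide spread in both groups (log2 fold change 0.74, SE 0.44, adjusted p = 0.235, or 1.37 and adjusted p = 0.0404 without saline library 2). Lamb2, the alternative beta chain, was at 37.2, 15.6 and 13.7 CPM in DT, against 39.5, 35.9 and 27.4 CPM in saline. DT library 1 was at the level of saline, and Lamb2 did not pass (log2 fold change -0.63, SE 0.34, adjusted p = 0.195), but did without that library (-1.23, adjusted p = 0.0032).

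Lama3 and Lamb3 encode an alpha and a beta chain found in hemidesmosomal laminin of skin, and neither passed the test. Lama3 was at 346, 271 and 299 CPM in DT, against 304, 390.4 and 320 CPM in saline, and overlapped between groups (log2 fold change -0.15, SE 0.15, adjusted p = 0.48). Lamb3 (chromosome 1 from 193294353 to 193343878) was at 1104, 477 and 542 CPM in DT, against 963, 939.6 and 752 CPM in saline. DT library 1 thus stood above all saline libraries and the other DT libraries below them, for a difference of -0.32 on the log2 scale (SE 0.28, adjusted p = 0.41), or -0.80 (adjusted p = 0.00462) without DT library 1.

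**Figure D2:**
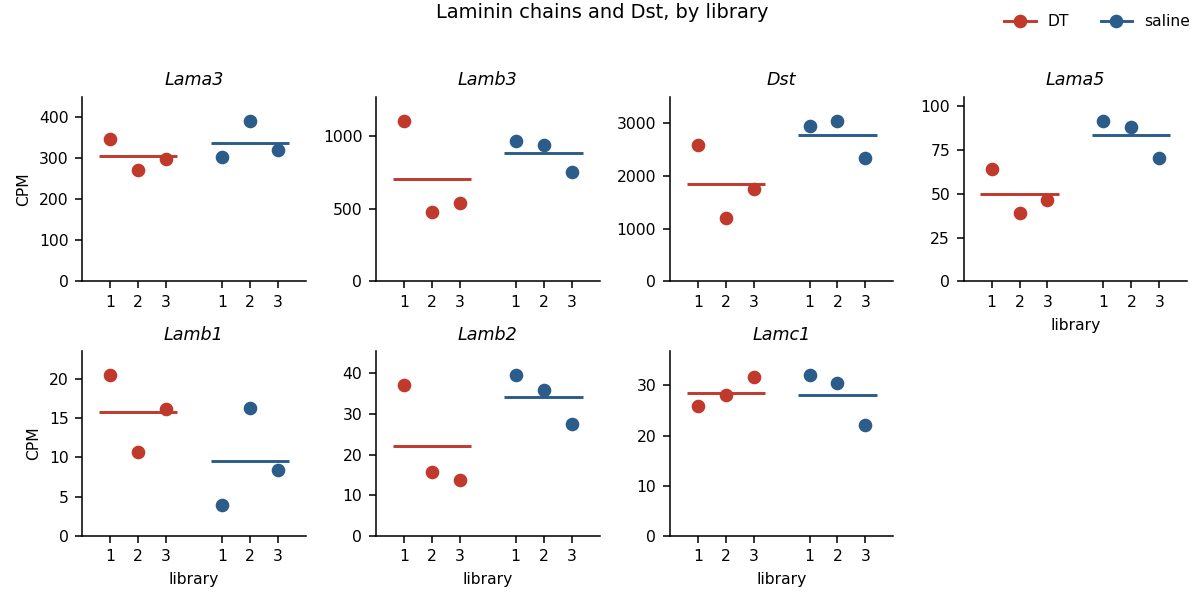
CPM on the vertical axis, from 0, of Lama3, Lamb3, Dst, Lama5, Lamb1, Lamb2 and Lamc1 in DT libraries 1 to 3 (left of each panel) and saline libraries 1 to 3 (right); points are libraries and lines group means. Each gene shown except Lamc1 is higher in DT library 1 than in the other DT libraries, and Lama5 lies below saline in each DT library.

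The hemidesmosome plakins, which link the anchoring complex to keratin filaments, were among the abundant members and did not pass. Dst (chromosome 1 from 33907888 to 34308662), which encodes the epithelial form of dystonin and longer forms, was at 2581, 1193 and 1751 CPM in DT, against 2946, 3039 and 2334 CPM in saline. DT libraries 2 and 3 lay below saline and DT library 1 within its range (log2 fold change -0.59, SE 0.24, adjusted p = 0.096). With DESeq2 the adjusted p was 0.0357, and without DT library 1 the log2 fold change was -0.92 (adjusted p = 0.00794). Plec, the plectin gene, was at 861, 652 and 720 CPM in DT, against 1001, 973 and 782 CPM in saline (log2 fold change -0.30, SE 0.15, adjusted p = 0.16).

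Of the linkers and proteoglycans of the sheet, agrin fell and the others were low or overlapped. Agrn (Entrez 11603, chromosome 4 from 156165290 to 156197533) was at 167, 111 and 141 CPM in DT, against 301, 315 and 270.2 CPM in saline. The groups were well apart (log2 fold change -1.08, SE 0.16, adjusted p = 0.00128). Hspg2, the perlecan gene, was at 16.6, 13.4 and 8.22 CPM in DT, against 19.3, 8.56 and 7.16 CPM in saline, where saline library 1 stood above the rest (log2 fold change 0.12, SE 0.39, adjusted p = 0.834). The nidogens, which bridge laminin and type IV collagen, were too low to test: Nid1 had 7, 0 and 2 reads in DT libraries, against 30, 4 and 20 reads in saline libraries, and Nid2 had 1, 2 and 0 reads in DT libraries, against 5, 7 and 3 reads in saline libraries.

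The Fraser complex, in which Frem1, Frem2 and Fras1 proteins stabilise one another at the epithelial side of the basement membrane, was represented almost only by Frem2. Frem2 (Entrez 242022, chromosome 3 from 53513938 to 53658593) was at 12.5, 7.52 and 10.4 CPM in DT, against 38.7, 25.8 and 28.5 CPM in saline. Its groups did not overlap, and its change of -1.61 on the log2 scale (SE 0.24, adjusted p = 0.00127) was exceeded among members that fell only by that of Col5a1. Frem1 had 1, 3 and 4 reads in DT libraries, against 0 in each saline library, and Fras1 had 0, 0 and 1 reads in DT libraries, against 0, 3 and 0 reads in saline libraries, so neither was tested.

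Interstitial collagen genes, which fibroblasts of the dermis express strongly, were mostly low in these sorted cells, and 4 of the 6 tested fell. Col6a1 (chromosome 10 from 76708792 to 76726044) was at 92.9, 76.5 and 98.8 CPM in DT, against 160, 172 and 149 CPM in saline (log2 fold change -0.85, SE 0.14, adjusted p = 0.0021). Col6a2 (chromosome 10 from 76595756 to 76623630) was at 10.8, 9.80 and 10.3 CPM in DT, against 29.4, 24.7 and 22.1 CPM in saline (log2 fold change -1.30, SE 0.19, adjusted p = 0.00102). These genes encode chains of the beaded filaments of type VI collagen, and both were well apart between groups. Col6a3, the gene of the chain that usually completes the trimer, had 0, 0 and 1 reads in DT libraries, against 0, 0 and 2 reads in saline libraries.

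Col1a2 (chromosome 6 from 4505618 to 4541543) was at 15.3, 8.33 and 13.3 CPM in DT, against 35.8, 29.5 and 21.3 CPM in saline, without overlap (log2 fold change -1.22, SE 0.27, adjusted p = 0.0079). Its partner in type I collagen, Col1a1, was at 1.08, 0.873 and 1.28 CPM in DT, against 2.45, 2.22 and 1.22 CPM in saline, and did not pass (log2 fold change -0.85, SE 0.46, adjusted p = 0.191). Per length, Col1a2 stood above Col1a1 by a ratio of 10.4 ± 2.28 in DT and 13.9 ± 1.98 in saline (RPKM, SD, n = 3 each). For the type V chains, Col5a1 (chromosome 2 from 27886381 to 28039510) was at 1.22, 0.873 and 0.998 CPM in DT, against 6.18, 4.12 and 2.82 CPM in saline (log2 fold change -2.07, SE 0.41, adjusted p = 0.00493). Antisense transcripts are annotated over 99 and 113 of its 8490 exon bases, and whether counting used strand is not stated. Col5a2 was far higher, at 140, 60.6 and 92.4 CPM in DT, against 102, 101 and 103 CPM in saline, and did not pass (log2 fold change -0.06, SE 0.25). The saline libraries agreed closely and the DT libraries lay on both sides of them. Col3a1 was not tested: it had 0, 0 and 1 reads in DT libraries, against 57, 0 and 5 reads in saline libraries, nearly all of them in saline library 1.

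Of the 9 fibroblast markers listed, 5 were too low to test and 4 were measured above the filter. Lum and Twist2 had 0 reads in all 6 libraries, Dcn had 2 to 7 reads in DT libraries and 7 to 17 in saline libraries, Pdgfra had 0 to 9 reads in DT libraries and 0 to 11 in saline libraries, and Dpt had 0 to 1 reads in DT libraries and 0 to 9 in saline libraries. Ly6a was at 34.6 ± 6.71 CPM in DT and 22.0 ± 8.53 CPM in saline, Crabp1 at 16.3 ± 5.84 CPM in DT and 11.9 ± 2.65 CPM in saline, and Thy1 at 0.451 ± 0.123 CPM in DT and 0.799 ± 0.417 CPM in saline (SD, n = 3 each). These last genes did not pass the test. The summed level of the 9 listed fibroblast markers was 44.8 to 69.1 CPM in DT and 36.0 to 67.4 CPM in saline. The gene of the list that fell was Vim, which other cell types also express and which was at 5.47 ± 0.436 CPM in DT and 17.6 ± 9.78 CPM in saline (log2 fold change -1.69, adjusted p = 0.0129; SD, n = 3 each). The part of fibroblast RNA in the fall of the interstitial collagens was not tested.

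Within the provisional and matricellular group the genes moved in opposite directions. Fn1 (Entrez 14268, chromosome 1 from 71585473 to 71653280), the fibronectin gene, was at 13.6, 11.1 and 17.6 CPM in DT, against 3.81, 2.78 and 2.65 CPM in saline. All DT libraries lay well above saline (log2 fold change 2.20, SE 0.27, adjusted p = 0.00049), and the difference was 1.92 within the larger identifier series and 2.72 within the smaller. Tnc (Entrez 21923, chromosome 4 from 63959785 to 64047015), which encodes the anti-adhesive glycoprotein tenascin C, was at 87.4, 62.0 and 131 CPM in DT, against 17.8, 46.0 and 26.6 CPM in saline. Spread was wide in both groups, which did not overlap (log2 fold change 1.64, SE 0.35, adjusted p = 0.00707), with 1.36 within the larger identifier series and 2.31 within the smaller. Tnc did not pass when no filter on low counts was used (adjusted p = 0.0984). The smooth muscle markers Acta2 and Tagln rose beside Fn1 and Tnc. Cspg4, the remaining tested gene of the same list, did not pass (log2 fold change -0.24, adjusted p = 0.407). Myh11, Rgs5, Pdgfrb and Des were too low to test, and the summed level of the list overlapped between groups. The part of such cells in these results was not tested. Short antisense transcripts are annotated over 292 of 11685 exon bases of Fn1 and 176 of 7772 exon bases of Tnc.

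The other matricellular genes were abundant. Of the 6 provisional and matricellular genes, 3 fell (50%) and 2 rose (33.3%), against 11.9% and 17.2% of all genes tested. Sparc (chromosome 11 from 55394159 to 55420080), which encodes the collagen-binding protein osteonectin, was at 630.1, 453 and 705 CPM in DT, against 931, 1345 and 1139 CPM in saline (log2 fold change -0.93, SE 0.19, adjusted p = 0.00594). Fbln1 (chromosome 15 from 85205949 to 85286294), the fibulin 1 gene, was at 151, 105 and 119 CPM in DT, against 323, 216 and 184 CPM in saline (log2 fold change -0.95, SE 0.22, adjusted p = 0.00995). Postn (chromosome 3 from 54359267 to 54391041), the periostin gene, was at 4169, 2949.9 and 4334 CPM in DT, against 5118, 5519 and 5742 CPM in saline, with all DT libraries lower and DT library 2 the lowest. Its log2 fold change was -0.52 (SE 0.16, adjusted p = 0.0385), and the call was lost without DT library 2 or saline library 2 or 3 (adjusted p up to 0.104). Tgfbi (chromosome 13 from 56609586 to 56639359), which encodes a TGF-beta induced protein related to periostin, was at 1909, 1185 and 1503 CPM in DT, against 1754, 2337 and 2097 CPM in saline (log2 fold change -0.43, SE 0.19, adjusted p = 0.109). DT library 1 lay above the lowest saline library. With consecutive sample identifiers as a block, Tgfbi passed the test (log2 fold change -0.45, adjusted p = 0.0164).

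**Figure D3:**
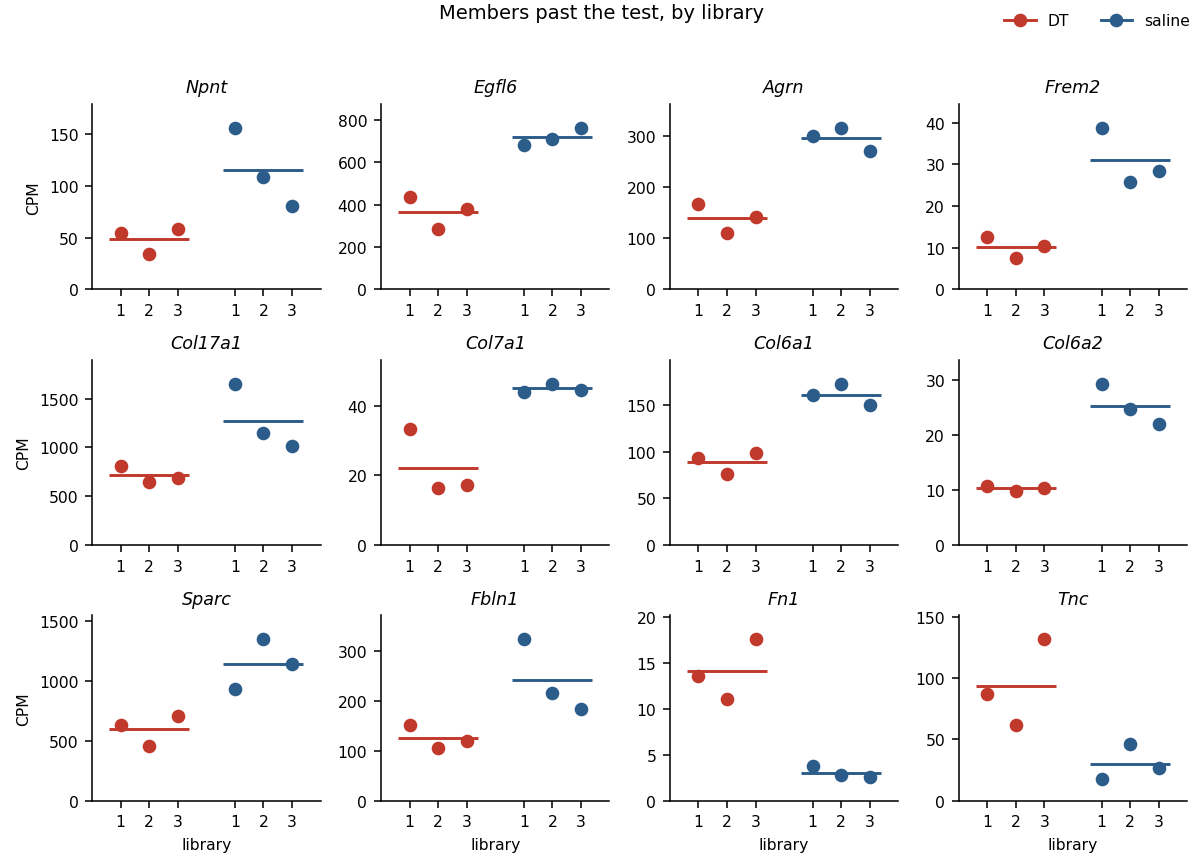
CPM on the vertical axis, from 0, of 12 members past the test in DT libraries 1 to 3 (left of each panel) and saline libraries 1 to 3 (right); points are libraries and lines group means. In 10 panels every DT library is below every saline library, and for Fn1 and Tnc every DT library is above.

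Compared per transcript length, on the authors' RPKM scale, the members differed widely in level. Postn was the most abundant, at 1085.5 ± 204 RPKM in DT and 1552 ± 92.0 RPKM in saline, followed by Tgfbi at 537 ± 116 RPKM in DT and 724 ± 102 RPKM in saline (SD, n = 3 each, as for all levels here). Sparc, at 173 ± 36.4 RPKM in DT and 329.7 ± 59.5 RPKM in saline, came next by mean in both groups. In DT library 1, however, Lamb3 was higher, at 236 RPKM against 179 RPKM for Sparc. Egfl6 (127 ± 24.3 RPKM in DT, 250.1 ± 14.2 RPKM in saline), Col17a1 (116 ± 12.1 RPKM in DT, 207 ± 54.5 RPKM in saline) and Lamb3 (154 ± 71.6 RPKM in DT, 193 ± 24.8 RPKM in saline) followed, and in neither group can Col17a1 and Lamb3 be put in order beyond their spread. Tnc took rank 14 of the 37 in DT and rank 22 in saline. Fn1, although it rose, remained low at 1.58 ± 0.363 RPKM in DT and 0.343 ± 0.0710 RPKM in saline. Among the listed laminin chains, Lamb3 and, well below it, Lama3 (23.9 ± 2.49 RPKM in DT, 26.4 ± 3.55 RPKM in saline) were the highest. Below them were Lama5 (4.01 ± 0.952 RPKM in DT, 6.74 ± 0.897 RPKM in saline), Lamb2 (3.66 ± 2.08 RPKM in DT, 5.68 ± 1.02 RPKM in saline), Lamc1 (3.53 ± 0.409 RPKM in DT, 3.47 ± 0.642 RPKM in saline) and Lamb1 (2.44 ± 0.715 RPKM in DT, 1.48 ± 0.971 RPKM in saline). All 37 genes together took 1.32%, 0.862% and 1.17% of the reads in genes in DT libraries 1, 2 and 3, against 1.80%, 1.81% and 1.66% in saline libraries 1, 2 and 3.

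**Figure D4:**
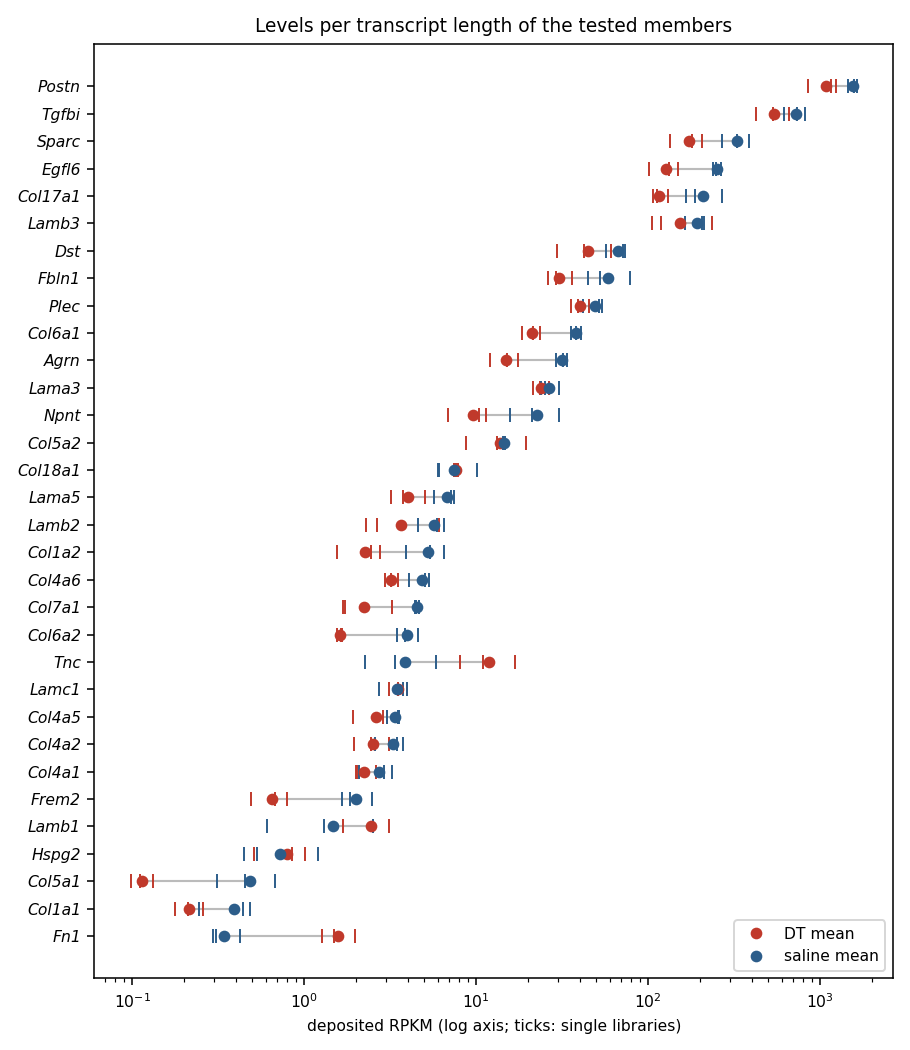
Deposited RPKM, on a log axis, of the 32 tested members, ordered by their saline mean. Dots are group means (DT and saline), ticks single libraries and grey lines join the means; Postn leads at 1085.5 RPKM in DT and 1552 RPKM in saline, and Tnc and Fn1 lie clearly further right in DT.

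Ratios of RPKM within each library describe the balance of partner genes, and no test of them was made. Col6a2 over Col6a1 was 0.0772, 0.0848 and 0.0692 in DT, against 0.121, 0.0948 and 0.0981 in saline, and lower in every DT library. Col5a2 over Col5a1 was 148, 89.3 and 119 in DT, against 21.3, 31.6 and 47.0 in saline, with Col5a1 resting on 13 to 26 reads per DT library. Of the matricellular genes, Tnc over Postn was 0.00940, 0.00943 and 0.0136 in DT, against 0.00156, 0.00374 and 0.00207 in saline. Ratios of Col4a6 to Col4a5, at 1.26 ± 0.235 in DT and 1.44 ± 0.258 in saline, and of Lamb3 to Lama3, at 6.30 ± 2.26 in DT and 7.38 ± 1.28 in saline, overlapped (SD, n = 3 each).

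Other genes of the pathway were read from 5 lists with 84 genes, of which 60 were tested, 11 rose and 11 fell, with a median log2 fold change of -0.07. That is 18.3% in each direction, against 17.2% higher and 11.9% lower of all genes tested. Of 18 tested further basement membrane genes, 6 fell (33.3%) and 2 rose (11.1%). Smoc2, a secreted calcium-binding matrix protein gene, was at 49.0 ± 9.69 CPM in DT and 154 ± 32.0 CPM in saline (log2 fold change -1.65, SE 0.19, adjusted p = 0.000353; SD, n = 3 each). Vwa2, which encodes AMACO, a binding partner of the Fraser complex, fell by 0.87 on the log2 scale (adjusted p = 0.00988), and Fbln5, an elastic fibre fibulin gene, by 1.64 (adjusted p = 0.0146). Among those that rose was Lad1 (log2 fold change 0.54, adjusted p = 0.0327), the ladinin gene, named after its values were seen.

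Of 15 tested collagen processing genes 2 (13.3%) changed in each direction, against 17.2% higher and 11.9% lower of all genes. P4hb (log2 fold change 0.58), the beta subunit of prolyl hydroxylase and a general disulfide isomerase, and the lysyl oxidase Loxl4 (1.12) rose. The procollagen protease gene Tll1 (-1.98, adjusted p = 0.000586) and the lysyl hydroxylase gene Plod1 (-0.41, adjusted p = 0.0468) fell. Among 11 non-integrin receptor genes 3 rose (27.3%, against 17.2% of all genes) and 0 fell: Dag1, which encodes dystroglycan, was at 124 ± 22.1 CPM in DT and 83.2 ± 15.7 CPM in saline (log2 fold change 0.57, adjusted p = 0.0363), and the hyaluronan receptor Cd44 rose by 0.40 on the log2 scale (adjusted p = 0.0458; SD, n = 3 each). Hmmr, which binds hyaluronan and also works at the mitotic spindle, was at 62.2 ± 22.5 CPM in DT and 5.40 ± 2.10 CPM in saline (log2 fold change 3.52, adjusted p = 0.000139; SD, n = 3 each).

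Of 8 tested further provisional matrix genes, 2 rose and 2 fell, or 25% in each direction, against 17.2% higher and 11.9% lower of all genes. Thbs1, the thrombospondin 1 gene, was at 176, 213 and 183 CPM in DT, against 34.6, 53.8 and 49.4 CPM in saline, far apart (log2 fold change 2.05, SE 0.18, adjusted p = 7.46e-05). Tnfaip6, which encodes a protein that cross-links hyaluronan, was at 1.45, 1.61 and 1.52 CPM in DT, against 0, 0.278 and 0.0868 CPM in saline (adjusted p = 0.0103). The hyaluronan synthase gene Has2 (log2 fold change -1.12, adjusted p = 0.00921) and Ccn2 (-0.90, adjusted p = 0.0144), a matricellular gene, fell. Of 8 tested further interstitial matrix genes, 25% were higher and 12.5% lower: the fibrillin gene Fbn2 (log2 fold change 2.19, adjusted p = 0.00101) and the small proteoglycan gene Fmod (2.09, adjusted p = 0.00753) rose, and Col16a1 (-1.40, adjusted p = 0.0416) fell.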

How the data were processed

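The expression of 37 genes was read from 6 libraries, 3 DT and 3 saline, whose numbers follow record order. Labels give no replicate numbers, so equal numbers pair nothing. The authors deposited a count per gene, the number of reads aligning uniquely to its gene model, and an RPKM with size-factor adjustment, per the file headers. Reads were aligned with GSNAP to GRCm38, per the submitters' processing notes. The sources used here give no aligner version, annotation or strand use. Reads with several alignments were left out, and genes that overlap can share reads. Symbols and coordinates came from RefSeq on GRCm38, which named 31049 of 36528 Entrez identifiers, and exon overlaps from GENCODE on the same build.

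Counts were tested across all genes with edgeR 4.0.16 in R 4.3.3: filterByExpr (minimum count 10, minimum total 15), TMM scaling and the robust quasi-likelihood test with Benjamini-Hochberg adjustment, with 4 residual degrees of freedom. The test was tried on simulated data. Alternatives were 2 other scalings, 2 other filters, DESeq2 1.42.0, limma-voom and limma 3.58.1 on log2(RPKM + 1), blocks by sample identifier, the larger identifier series alone, and each library left out. Named are all members, up to 6 genes with the smallest p past the test from each pathway list, and Cd34, Itga6 and Lgr5; 1 gene of a pathway list is not reported here. Members and lists were chosen with earlier results of these data known.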

Additional observations from a re-analysis of the deposited data

How the results depend on the processing

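Of the 17 calls among the members, 12 held under all 16 alternatives: Col17a1, Col1a2, Col5a1, Col6a1, Col6a2, Npnt, Egfl6, Agrn, Frem2, Fn1, Fbln1 and Sparc. With each library left out in turn, 2 to 3 members rose and 12 to 19 fell, 0 to 1 laminin chains rose and 0 to 3 fell, and 1 to 3 basement membrane collagens fell, while over all genes 1564 to 2826 rose and 996 to 2045 fell. The count of laminin chains that fell was 3 without DT library 1. Only in the larger identifier series, 1097 genes rose and 473 fell, 1 member rose, which was also the count of provisional genes that rose, 0 laminin chains fell and 1 basement membrane collagen fell. Without a filter on low counts 1 member, a provisional gene, rose, since Tnc did not pass. That setting also called Col3a1 lower (adjusted p = 0.026). The labels give no replicate numbers to pair libraries by. With consecutive sample identifiers, each a DT and a saline library, as a block, 3 members rose and 17 fell, where 1 laminin chain, Lamb1, rose (0.89, adjusted p = 0.0299), and Dst (-0.65, adjusted p = 0.0352) and Tgfbi (-0.45, adjusted p = 0.0164) joined the genes that fell. Of all 15132 genes tested, 2703 rose and 1889 fell with that block. With the identifier number series as a block the members' calls were the same in number, 2 higher and 15 lower, and of all 15132 genes tested 2450 were higher and 1667 lower.

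Genes near a log2 fold change of 0 changed sign, and all of them missed the test in each case. Lamc1 was at -0.0785 when scaled by library size, at -0.0039 without a filter, at -0.0023 with a filter on a mean count of 10 and at -0.21 in the larger series, and between -0.13 and 0.10 with a library left out. Col18a1 was at -0.0648 when scaled by library size and -0.105 in the larger series, and between -0.0899 and 0.31 with a library left out. With a library left out, Col5a2 lay between -0.42 and 0.15 and Hspg2 between -0.13 and 0.67. The cause of these changes was not tested. The 5 members with too few reads to pass the filter could not be judged at this depth.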

Other observations

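Further matrix genes, named after their values were seen, included other collagens and the latent TGF-beta binding proteins, some of which store TGF-beta in the matrix. Of all 44 genes with a collagen chain symbol, 23 were tested, 11 fell and 0 rose, or 47.8% of those tested (edgeR quasi-likelihood test, and 11.9% of all genes fell). These 11 include the 3 basement membrane and 4 interstitial collagen members that fell, and Col4a3, Col4a4 and Col16a1, all given above. Not given above was Col8a2, a gene of the short-chain type VIII collagen, at 60.7, 38.5 and 45.5 CPM in DT, against 186, 144 and 110.4 CPM in saline (log2 fold change -1.61, SE 0.22, adjusted p = 0.000859). Its partner Col8a1 was at 19.7 ± 11.9 CPM in DT and 24.1 ± 4.84 CPM in saline (SD, n = 3 each) and did not pass (adjusted p = 0.625).

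All 4 latent TGF-beta binding protein genes fell, where 11.9% of all genes tested did. Ltbp1 was at 59.8, 61.1 and 64.3 CPM in DT, against 186, 168 and 165 CPM in saline, with little spread in either group (log2 fold change -1.49, SE 0.12, adjusted p = 5.75e-05). Ltbp3 (log2 fold change -1.30, adjusted p = 0.00369), Ltbp4 (-1.14, adjusted p = 0.00857) and Ltbp2 (-0.83, adjusted p = 0.0397) fell less on this scale. Adamtsl4, whose product binds fibrillin microfibrils, was at 94.3 ± 31.9 CPM in DT and 271 ± 4.12 CPM in saline (log2 fold change -1.52, adjusted p = 0.000825; SD, n = 3 each). Of the 4 tested Adamtsl genes 2 fell and 2 did not pass. Tinagl1, which encodes a basement membrane protein, moved the other way, at 8.34 ± 2.35 CPM in DT and 2.05 ± 0.482 CPM in saline (log2 fold change 2.02, adjusted p = 0.00183; SD, n = 3 each), as did the small proteoglycan gene Prelp, at 10.1 ± 2.55 CPM in DT and 2.54 ± 0.629 CPM in saline (log2 fold change 1.99, adjusted p = 0.00136).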
